A study of Mus musculus with 4 samples.

Results

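The chemokine ligands of the mouse were followed in bulk RNA sequencing of the stomach, compared between WT and *c-Myc* transgenic mice. The ligands were taken by name, as every gene symbol made of Ccl, Cxcl, Cx3cl or Xcl with digits and at most 1 letter, which gave 39 of the 46095 genes counted. Both genotypes were C57BL/6 mice of 12 weeks, with 2 libraries each. The transgenic mice, labelled *Atp4b-cre;MycOE*, carried *Atp4b-cre* together with 1 floxed copy of a *c-Myc* transgene (*Myc* fl/+), and the WT controls were *Myc* fl/fl littermates without Cre. Cre was driven by the *Atp4b* promoter, which is active in the parietal cell lineage, so it was not directed to the stromal cells and leukocytes that share the tissue. The rows used here are mouse genes and the transgene is human, so the targeted gene gave no check of the labels.

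Chemokines are small secreted proteins that guide migrating cells along a gradient. They bind G protein-coupled receptors on leukocytes, and atypical receptors on other cells take them up without signalling. Some are made constantly by stromal and epithelial cells and set where resident leukocytes live, while others are induced by NF-kB or interferon during inflammation. In the gastric mucosa both kinds are known, from epithelium, fibroblasts, endothelium and macrophages.

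The 4 libraries held 30260305 to 41463647 counts, so that the 3 counts that an absent transcript allows correspond to 0.0672 to 0.108 CPM (counts scaled to the TMM-normalized library size), for counting error only. Names and counts of the transgenic columns were out of register in the table as deposited, where Pearson's r of log2(count + 1) between the genotypes across genes was 0.524. With the transgenic counts assigned in row order to the names sorted by character code, r was 0.985. The 14 rows of *Cx3cl1* and the *Cxcl* genes hold the same position in either order, the 24 *Ccl* rows move by 6 places, and *Xcl1* moves by 397. In the 328 rows around the *Ccl* genes r was 0.160 before and 0.967 after the re-sorting. WT replicate 2 had the *Xist* count of a female (17846) and the other 3 libraries had 85 to 201, so genotype and sex were not balanced. Stomach markers were present in WT, and the summed parietal cell markers were 10419 and 10574 CPM in WT and 181 and 244 CPM in the transgenic libraries, with 4 of 4 genes called lower, *Atp4b* (log2 fold change −5.82) and *Atp4a* (−5.59) most. Chief cell markers summed to 82849 and 78449 against 1194 and 1514 CPM, with 3 of 4 called lower (*Pgc* at −6.00 and *Gif* at −4.44 most). Surface mucous markers summed to 44889 and 53560 against 10957 and 17193 CPM, with 4 of 4 called lower (*Muc5ac* at −2.46 and *Gkn2* at −1.88 most), and pancreatic acinar markers to 392.1 and 330 against 126 and 146 CPM, with 2 of 2 tested called lower (*Clps* at −7.13 and *Cela1* at −0.76). Mucous neck cell markers overlapped (9863 and 12194 against 19714 and 8666.5 CPM), with 0 of 2 called.

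Of the 39 ligands, 22 had enough counts to be tested and 17 did not. A gene was called with an adjusted p-value under 0.05 (edgeR, Benjamini-Hochberg over all 17643 genes tested) and a fold change above 1.5 in either direction. *Cxcl17* and *Cxcl5* rose, which is 9.09% of the tested ligands, where 5.65% of all genes tested were called higher. *Cxcl12* and *Ccl6* fell, again 9.09%, where 5.08% of all genes were called lower. At an unadjusted p under 0.05 there were 4 ligands higher (18.2%, against 17.7% of all genes) and 8 lower (36.4%, against 16.4%). DESeq2 gave an adjusted p to 18257 genes and 25 ligands, of which it called 3 ligands higher and 4 lower, where it called 8.23% and 9.49% of all genes. In normalized levels, both transgenic libraries lay above both WT libraries for 5 tested ligands (22.7%, against 33.3% of all genes), and below both for 13 (59.1%, against 31.5%). The median log2 fold change was −0.88 over the 22 tested ligands, the same with *Cxcl5* set at its lower bound, and 0.01 over all genes tested. A ligand that was high in 1 genotype alone could pass the filter through that genotype. *Cxcl5*, 1 of the 2 ligands called higher, did so, with 0 counts in both WT libraries. The shares above therefore describe the tested ligands and not all 39. In whole tissue, fewer cells of a type and less RNA per cell cannot be told apart.

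**Figure D1:**
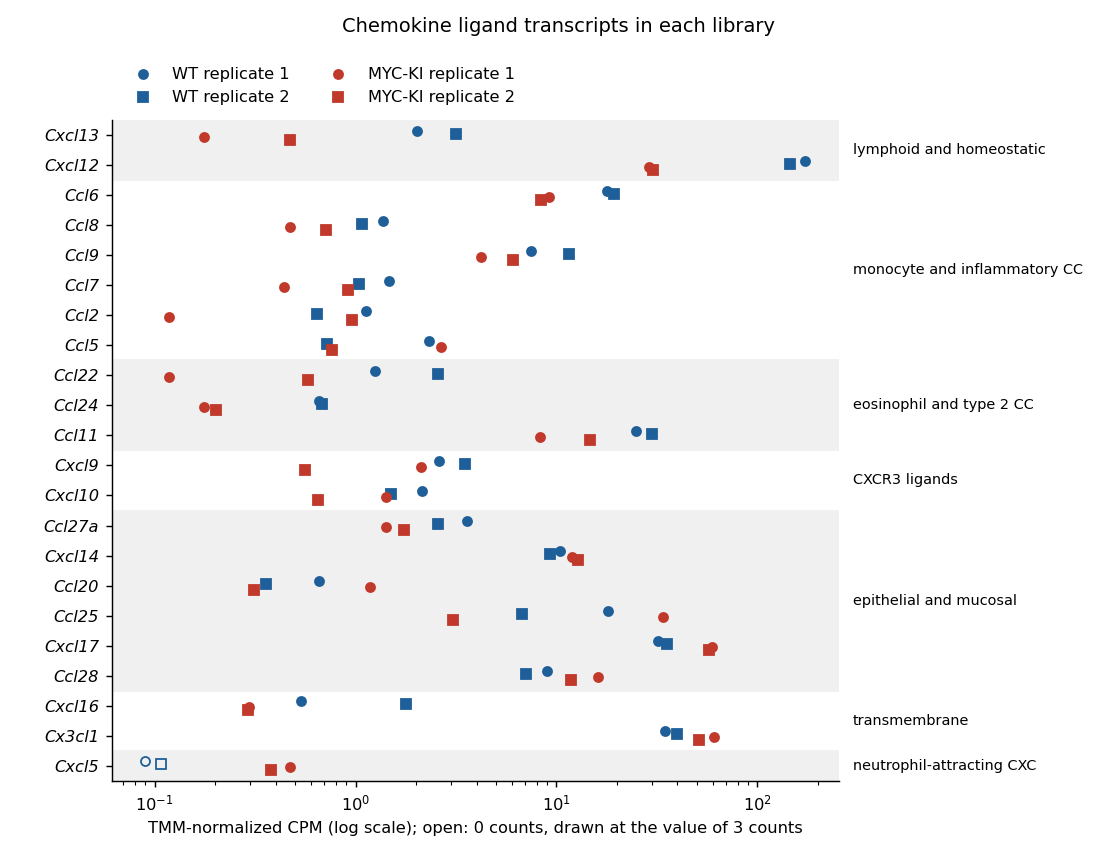
TMM-normalized CPM (log axis) of the 22 tested chemokine ligands in each of the 4 libraries, grouped by role, with blue for WT and red for transgenic libraries and open symbols for 0 counts. *Cxcl12* lay at 145 and 173 CPM in WT and at 29.0 and 30.3 CPM in the transgenic libraries, while *Ccl25* spread from 3.04 to 33.7 CPM within the transgenic pair.

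*Cxcl12*, a ligand of CXCR4 that stromal cells make constantly and that holds leukocytes and progenitors in tissues, showed the clearest fall. It lies on chromosome 6 (chr6:117168535-117181367, plus strand, GRCm38). Its counts were 5820 and 4036 in the WT libraries against 982 and 1354 in the transgenic libraries, without overlap. Normalized levels were 159 ± 20.3 CPM in WT and 29.6 ± 0.961 CPM in transgenic stomach (mean ± SD, n = 2), a log2 fold change of −2.42 (SE 0.12, adjusted p = 0.00975). The level was therefore 5.37-fold higher in WT. Leaving out each library in turn gave log2 fold changes between −2.55 and −2.29.

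*Ccl6*, a CC chemokine of rodents made mainly by myeloid cells, fell as well. It lies on chromosome 11 (chr11:83587882-83593087, minus strand), and had 598 and 540 counts in WT against 313 and 375 in transgenic stomach. The mean went from 18.6 ± 1.09 to 8.81 ± 0.589 CPM (n = 2), a log2 fold change of −1.08 (SE 0.15, adjusted p = 0.0287). Leaving out either WT library, including the female-type one, ended the calls of *Cxcl12* and *Ccl6* and of every other gene, in fits that have 1 residual degree of freedom.

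The 250 bases before the start site are shown for both falling ligands, because they differ in base composition (RefSeq, GRCm38.p6, read 5′ to 3′ on the strand of the gene). Capitals mark the GC box GGGCGG on either strand. The window of *Cxcl12* (chr6:117168285-117168534, plus strand) was 64.4% G and C and held 5 GC boxes, of which the last pair overlaps. The window of *Ccl6* (chr11:83593088-83593337, minus strand) was 45.2% G and C and held none. Over 32851 promoter windows of this length 32.7% held a GC box, against 5 of the 33 windows listed for 27 ligands (15.2%). Among the ligand windows 10 held TATAAA on either strand (30.3%, against 12.4% of all windows) and 1 held the E-box CACGTG (3.03%, against 6.02%). The 9-base GAS motif TTCNNNGAA was in 2 ligand windows (6.06%, against 7.02%). None of these motifs contains another, and a match is a stretch of letters and not a measured site.
Cxcl12: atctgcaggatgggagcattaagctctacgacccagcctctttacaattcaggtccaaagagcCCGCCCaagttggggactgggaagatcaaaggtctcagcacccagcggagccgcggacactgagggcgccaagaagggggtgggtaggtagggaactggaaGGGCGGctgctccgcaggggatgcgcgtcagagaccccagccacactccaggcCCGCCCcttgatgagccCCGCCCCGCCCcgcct
Ccl6: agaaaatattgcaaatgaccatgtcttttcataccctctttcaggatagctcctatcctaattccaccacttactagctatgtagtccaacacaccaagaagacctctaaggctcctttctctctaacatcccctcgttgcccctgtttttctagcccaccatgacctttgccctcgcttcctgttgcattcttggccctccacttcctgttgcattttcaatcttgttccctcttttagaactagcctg

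*Cxcl13*, which draws B cells through CXCR5, was the other tested ligand of the lymphoid and homeostatic group. Its counts were 68 and 88 in WT and 6 and 21 in the transgenic libraries, a level of 2.59 ± 0.798 against 0.324 ± 0.207 CPM. The log2 fold change was −2.96 (SE 0.62) and the adjusted p was 0.0521, just short of the threshold. It was 0.0180 without the filter on low counts, 0.0454 with library size alone and 0.000678 with DESeq2, where *Cxcl13* was called. With the size factors of DESeq2 in edgeR it was 0.0521 again and *Cxcl13* was not called. Of the fits without 1 library *Cxcl13* was called without transgenic replicate 2 (log2 fold change −3.84, adjusted p = 0.0366) and not without transgenic replicate 1 (−2.45, 0.0729) or WT replicate 1 or 2 (0.215 and 0.253). The ligands of CCR7, which guide T cells and dendritic cells to lymphoid tissue, were at 0 counts in every library (*Ccl19*, *Ccl21a*, *Ccl21b* and *Ccl21c*). These genes have near-identical copies, and how the counting treated reads that match several copies is not given in the sources used here.

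Summed fibroblast markers moved with this group, at 2353 and 2642 CPM in WT and 684 and 1189 CPM in transgenic stomach, with 3 of 6 genes called lower. The largest fold changes were those of *Lum* (log2 −1.53, not called) and *Col3a1* (−1.52, called). Endothelial markers summed to 286 and 285 CPM in WT and to 119 and 101 CPM in transgenic stomach, with 4 of 4 called lower, *Kdr* (−1.83) and *Tek* (−1.56) most. B cell markers were at 3.28 and 4.66 CPM in WT and 2.51 and 1.61 CPM in transgenic libraries, with 0 of 3 tested called, *Ms4a1* at a log2 fold change of −2.87 and *Cd79b* at −1.17. Adipocyte markers summed to 60.9 and 150 CPM in WT and to 19.1 and 28.3 CPM in transgenic stomach, with 1 of 4 called lower by edgeR (*Lep*, log2 fold change −6.48, with *Plin1* next at −5.22) and 3 by DESeq2. Lymphatic endothelial markers were at 32.3 and 31.5 against 11.2 and 20.0 CPM with 0 of 3 called, and smooth muscle markers at 6514 and 4116 against 2096 and 4476 CPM with 0 of 5 called. The part of these cells in the fall of *Cxcl12* and *Cxcl13* was not tested.

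Of the 9 CC ligands of monocytes and inflammation, 6 were tested, and *Ccl6* alone among them passed. *Ccl9*, a close relative of *Ccl6* and like it a ligand of CCR1, lay at 7.51 and 11.5 CPM in WT and at 4.19 and 6.04 CPM in the transgenic libraries. Its log2 fold change was −0.89 (SE 0.33, adjusted p = 0.146), which did not pass, and it was −0.55 without WT replicate 2. *Ccl8* had 46 and 30 counts in WT against 16 and 32 in transgenic stomach, and its fold change of −1.03 on the log2 scale had an SE of 0.44 (adjusted p = 0.189). The CCR2 ligands *Ccl2* and *Ccl7*, which call monocytes out of the blood, had 38 and 18 against 4 and 43 counts and 49 and 29 against 15 and 41 counts. In normalized levels *Ccl2* overlapped between the genotypes and *Ccl7* did not (1.46 and 1.04 against 0.442 and 0.918 CPM), and their adjusted p-values were 0.672 and 0.325. Of all genes tested, 31.5% lay lower in both transgenic libraries, as *Ccl7* did. Without transgenic replicate 1 the log2 fold change of *Ccl2* went from −0.69 to 0.11, and without transgenic replicate 2 to −2.88. *Ccl5*, a T cell and NK cell product, had 78 and 20 counts in WT against 90 and 34 in transgenic stomach, a log2 fold change of 0.15 (SE 0.87). This value was below 0 without transgenic replicate 1 or WT replicate 2 (−0.45 without the latter) and 1.24 without WT replicate 1. In both genotypes replicate 1 held the higher *Ccl5* level and the higher sum of T cell markers (2.26 and 1.58 against 3.01 and 1.30 CPM, 0 of 3 tested called). It likewise held the higher sum of NK cell markers (3.37 and 1.61 against 6.28 and 0.963 CPM). Of the 3 NK cell genes 1 had enough counts to be tested, and it was not called. A sum can be carried by a single gene, so it does not speak for each marker. The part of T cells and NK cells in the values of *Ccl5* was not tested.

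The other CC ligands of this group were too low to be tested. *Ccl3* had 1 and 0 counts in WT against 2 and 6 in transgenic stomach, *Ccl4* had 4 and 4 against 1 and 2, and *Ccl12* had 8 and 8 against 10 and 5. Macrophage markers summed to 204 and 212 CPM in WT and to 76.8 and 78.6 CPM in transgenic stomach, with 5 of 7 genes called lower, and the largest fold changes were those of *Adgre1* (log2 −2.27, called) and *Cd163* (−2.14, not called). The part of macrophages in the fall of *Ccl6* was not tested.

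None of the 3 tested ligands of eosinophils and type 2 responses passed, although each lay lower in both transgenic libraries than in both WT libraries, as did 31.5% of all genes tested. *Ccl11* (eotaxin), a ligand of CCR3 on eosinophils, had 835 and 832 counts in WT against 280 and 655 in transgenic stomach. Its level was 27.4 ± 3.49 against 11.5 ± 4.53 CPM, with a log2 fold change of −1.25 (SE 0.32). The adjusted p of *Ccl11* was 0.0732, and *Ccl11* was called without the filter on low counts (0.0231), with DESeq2 (0.00172) and without transgenic replicate 2 (0.0180). *Ccl24*, a second eotaxin, had 22 and 19 counts against 6 and 9 (log2 fold change −1.80, SE 0.48, adjusted p = 0.0794). *Ccl22*, a CCR4 ligand of dendritic cells and macrophages, had 42 and 72 counts against 4 and 26 (log2 fold change −2.41, SE 0.87, adjusted p = 0.138). The value of *Ccl22* was −3.97 without transgenic replicate 2 and −1.71 without transgenic replicate 1.

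*Ccl17*, which shares CCR4 with *Ccl22*, had 9 and 11 counts in WT against 7 and 6 in transgenic stomach and was not tested. *Ccl1* had a single count in WT replicate 2, and *Ccl26* was at 0 in every library. Eosinophil markers summed to 3.28 and 3.66 CPM in WT and to 21.8 and 14.8 CPM in transgenic stomach, nearly all of it *Siglecf*, which was called higher (log2 fold change 2.65, 2.85 ± 0.0204 against 17.9 ± 4.86 CPM). Of the other 3 markers, *Prg2* was at 0.268 and 0.381 CPM on average (log2 fold change 0.48), *Il5ra* had 2 and 18 against 0 and 1 counts and was not tested, and the granule gene *Epx* was at 0 in every library. Mast cell markers summed to 12.2 and 19.5 CPM in WT and to 60.1 and 47.1 CPM in transgenic stomach, with 4 of 5 genes called higher, *Fcer1a* (2.46) and *Tpsb2* (1.98) most. Their part in the values of these ligands was not tested.

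**Figure D2:**
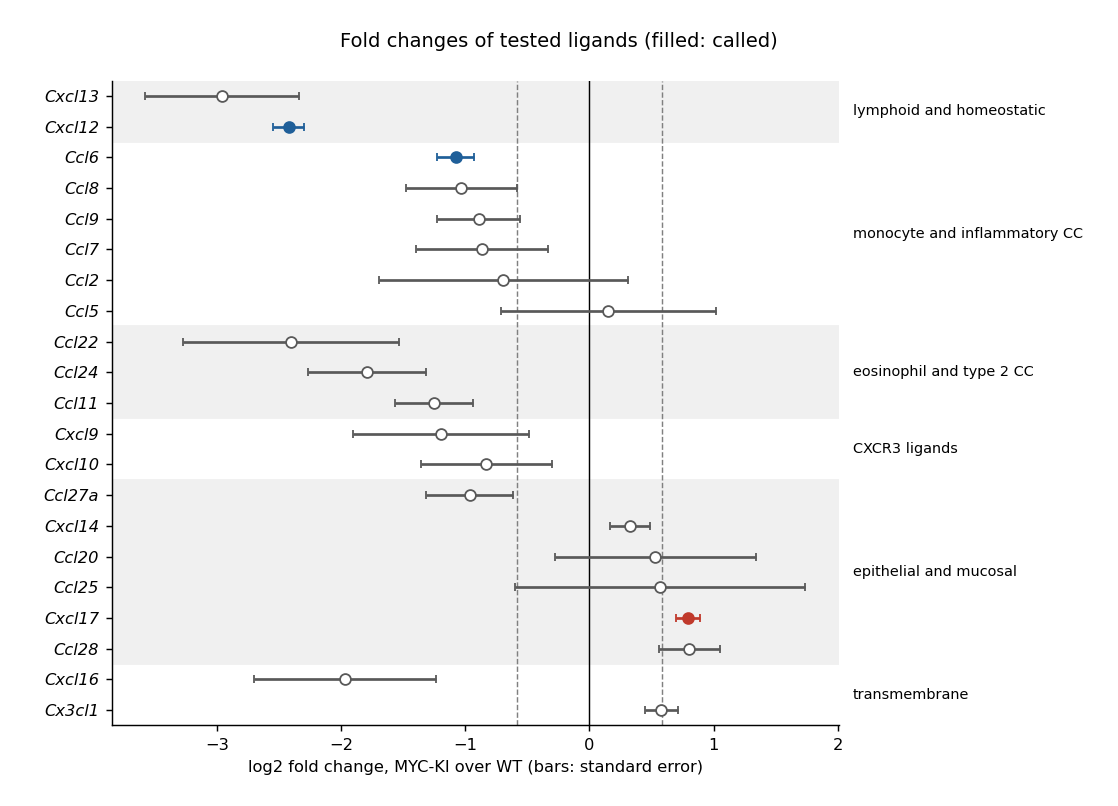
Log2 fold change of transgenic over WT stomach with its standard error for 21 tested ligands, grouped by role, with filled points for called ligands, a solid line at 0 and dashed lines at a fold change of 1.5 in each direction. *Cxcl12* (−2.42) and *Ccl6* (−1.08) lie left of the lines and *Cxcl17* (0.79) right of them, each with a short error bar, and *Cxcl5* is left out because both of its WT counts were 0.

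The interferon-induced ligands of CXCR3, which recruit T cells and NK cells, were low and none passed. *Cxcl9* had 87 and 98 counts in WT against 72 and 25 in transgenic stomach (log2 fold change −1.19, SE 0.71, adjusted p = 0.310), and its value was −2.44 without transgenic replicate 1 and −0.52 without transgenic replicate 2. *Cxcl10* had 72 and 42 counts in WT against 48 and 29 in transgenic stomach (log2 fold change −0.83, SE 0.53, adjusted p = 0.341), which became −1.49 and −0.37 when the same libraries were left out. *Cxcl11* had 1 count in each WT library and 0 in both transgenic libraries. In normalized levels the genotypes did not overlap for *Cxcl9* (2.59 and 3.51 against 2.12 and 0.560 CPM) and *Cxcl10* (2.15 and 1.51 against 1.42 and 0.649 CPM). Of all genes tested, 31.5% lay lower in both transgenic libraries in the same way.

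Among the ligands of epithelium and mucosa, 5 of the 6 tested had a log2 fold change above 0, and without transgenic replicate 1 this held for 3, as *Ccl25* (−2.02) and *Ccl20* (−0.70) turned negative. *Cxcl17*, a mucosal chemokine-like protein expressed in airway and gut epithelium, rose. Divided by the longest coding transcript of each gene, its level was the highest of all ligands in both genotypes. It lies on chromosome 7 (chr7:25400053-25412886, minus strand), and had 1069 and 985 counts in WT against 2013 and 2550 in transgenic stomach. The level went from 33.6 ± 2.44 to 58.2 ± 1.60 CPM (n = 2), a log2 fold change of 0.79 (SE 0.10, adjusted p = 0.0234). The estimate stayed between 0.72 and 0.87 when each library was left out, and the call was lost without either WT library. Epithelial markers summed to 6517 and 7024 CPM in WT and to 7211 and 7429 CPM in transgenic stomach. None of the 5 was called with edgeR, where *Epcam* (log2 fold change 0.84, adjusted p = 0.0705) and *Krt18* (0.38, adjusted p = 0.0795) had the highest fold changes, and DESeq2 called *Epcam* (adjusted p = 0.00157). *Epcam* was called too without the filter on low counts (0.0159), with library size alone (0.0361, as was *Krt18* at 0.0247) and without transgenic replicate 2 (0.0133). The part of epithelial cells in the rise of *Cxcl17* was not tested.

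*Ccl28*, a mucosal ligand of CCR10 that guides antibody-secreting cells, had 301 and 196 counts in WT against 547 and 528 in transgenic stomach. Its log2 fold change was 0.80 (SE 0.25), with an adjusted p of 0.102 with edgeR and 0.0374 with DESeq2, which called it. *Cxcl14*, made constantly by epithelium, lay at 10.4 and 9.28 CPM in WT and 12.0 and 12.8 CPM in transgenic stomach (log2 fold change 0.33, SE 0.16, adjusted p = 0.238). *Ccl20*, the CCR6 ligand of the epithelium over lymphoid follicles, had 22 and 10 counts against 40 and 14, with overlap (log2 fold change 0.53, adjusted p = 0.688). *Ccl27a*, a ligand of CCR10 known from keratinocytes, was the 1 tested member of this group with a lower mean, at 121 and 72 counts against 48 and 78 (log2 fold change −0.97, SE 0.35, adjusted p = 0.139). Its near-identical copy *Ccl27b* had 1 and 2 counts in WT and 0 in transgenic stomach, and an exon of *Il11ra1* overlaps *Ccl27a* on the opposite strand. Plasma cell markers, the cells that *Ccl28* guides, summed to 89.5 and 49.1 CPM in WT and to 207 and 46.8 CPM in transgenic stomach, with 0 of 2 tested called.

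*Ccl25*, the CCR9 ligand that small intestinal epithelium is known for, varied more within the genotypes than between them. Its counts were 603 and 187 in WT and 1143 and 136 in transgenic stomach, or 17.97 and 6.70 against 33.7 and 3.04 CPM. The log2 fold change of 0.57 had an SE of 1.17 (adjusted p = 0.772), and it was −2.02 without transgenic replicate 1. Markers of small intestinal enterocytes, listed after the values of *Ccl25* had been seen, were likewise higher in replicate 1 of each genotype, at 2191 and 1401 CPM in WT and 1564 and 129 CPM in transgenic stomach, with 0 of 7 called. Squamous markers of the forestomach went the other way in the transgenic pair, at 656 and 3529 CPM, against 2025 and 1121 CPM in WT. The part of the tissue sampled in the spread of *Ccl25* was not tested, and reads of *Elavl1*, which overlaps it on the opposite strand, cannot be told apart where the counting ignored strand.

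**Figure D3:**
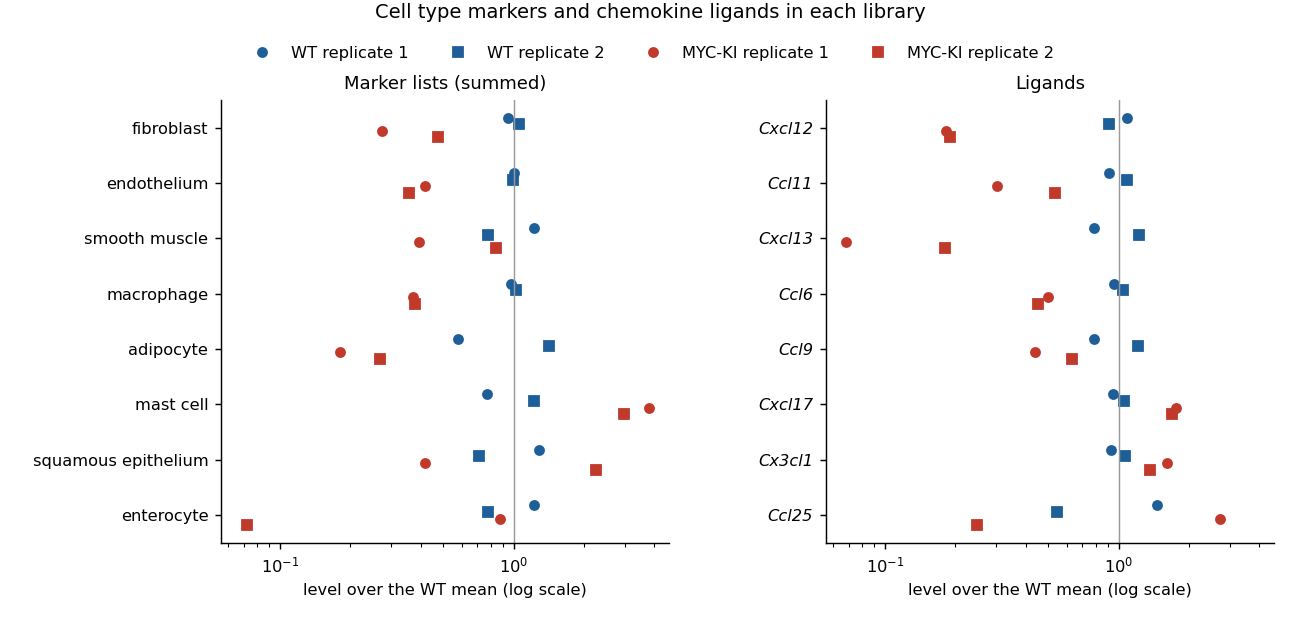
Summed marker genes of 8 cell types (left) and 8 chemokine ligands (right) in each library, as a ratio to the WT mean (line at 1, log axis), with blue for WT and red for transgenic libraries, circles for replicate 1 and squares for replicate 2. Fibroblast, endothelial and macrophage markers lie left of the line in both transgenic libraries like *Cxcl12*, *Ccl11*, *Cxcl13*, *Ccl6* and *Ccl9*, and enterocyte markers and *Ccl25* are lowest in transgenic replicate 2.

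The membrane-anchored ligands *Cx3cl1* and *Cxcl16*, which tether cells bearing CX3CR1 and CXCR6 and are released by shedding, had opposite signs. *Cx3cl1* (fractalkine) had 1167 and 1115 counts in WT against 2052 and 2281 in transgenic stomach, or 37.4 ± 3.67 against 55.8 ± 6.67 CPM. The log2 fold change was 0.58 (SE 0.13, adjusted p = 0.0611), which narrowly missed both thresholds. It was called with library size alone (0.80, adjusted p = 0.0255), without a filter on low counts (0.59, adjusted p = 0.0273) and without transgenic replicate 2 (0.70, adjusted p = 0.0418). *Cxcl16* had 18 and 50 counts in WT against 10 and 13 in transgenic stomach, with a log2 fold change of −1.97 (SE 0.74, adjusted p = 0.147). Without WT replicate 2, the female-type library, the value of *Cxcl16* was −0.87. The shedding proteases of these ligands and the protease that trims several chemokines (3 genes, all tested) had log2 fold changes from −0.61 to 0.37 and none was called, while *Adam10* was called higher with library size alone (0.59, adjusted p = 0.0179) and *Dpp4* lower without transgenic replicate 1 (−1.10, adjusted p = 0.0270).

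Among the CXC ligands that attract neutrophils through CXCR2, *Cxcl5* was the 1 of 5 with enough counts to be tested, and it rose. It lies on chromosome 5 (chr5:90759360-90761624, plus strand). *Cxcl5* had 0 counts in both WT libraries and 16 and 17 counts in the transgenic libraries, a mean of 0.426 ± 0.0645 CPM. This was at least 4.33-fold higher than the 3 counts per library that the WT zeros allow (adjusted p = 0.0497). The call was lost with the size factors of DESeq2 in edgeR (adjusted p = 0.0506) and without any 1 of the 4 libraries (0.0837 to 0.229), and *Cxcl5* passed the filter through the transgenic libraries alone.

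*Cxcl1* and *Cxcl2*, inducible neutrophil attractants, were not tested, with 1 and 5 against 8 and 23 counts and 1 and 0 against 7 and 4 counts. *Cxcl15* had 10 counts in transgenic replicate 1 and 0 elsewhere, and *Cxcl3* was at 0 in every library. Neutrophil markers summed to 7.12 and 6.34 CPM in WT and to 5.10 and 8.04 CPM in transgenic stomach, *Ly6g* and *Camp* were at 0 in all libraries, and *Retnlg* fell, with 40 and 76 against 1 and 0 counts. The other 3 tested neutrophil markers had log2 fold changes above 0 and were not called, *S100a8* (8 and 3 against 19 and 20 counts) at 1.498, *Csf3r* at 0.43 and *S100a9* at 0.38. Their part in the rise of *Cxcl5* was not tested. *Xcl1*, a ligand of XCR1 on cross-presenting dendritic cells, had 0 counts in WT against 3 and 1 in transgenic stomach.

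The kappaB motif was searched in the same promoter windows, because several of these ligands are known as NF-kB targets. It was found in 6 of the 33 ligand windows (18.2%, of *Ccl20*, *Ccl9*, *Cxcl1*, *Cxcl2*, *Cxcl3* and *Cxcl10*), against 3.90% of all windows. The matches on the strand of the gene are given in capitals, with their distance to the start site. The match of *Cxcl1* (chr5:90891174-90891183, plus strand) lies 71 bases before the start, that of *Cxcl2* (chr5:90903802-90903811, plus strand) 97 bases and that of *Cxcl3* (chr5:90786028-90786037, plus strand) 73 bases. The *Cxcl10* pair lies 103 bases (chr5:92348983-92348992, minus strand) and 159 bases (chr5:92349039-92349048, minus strand) before its start. *Cxcl1*, *Cxcl2* and *Cxcl3* shared the same 10 letters, which also match on the opposite strand when shifted by 1 base. Of these 4 genes *Cxcl10* alone had enough counts to be tested. The matches of *Ccl20* and *Ccl9* lie on the opposite strand alone. Both genes were tested and neither was called (log2 fold changes 0.53 and −0.89).
Cxcl1: GGGAATTTCC
Cxcl2: GGGAATTTCC
Cxcl3: GGGAATTTCC
Cxcl10, nearer match: GGGACTTCCC
Cxcl10, farther match: GGGAAATTCC

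Levels were also compared per kilobase of the longest coding transcript, which is 0.761 kb for *Cxcl17* and 5.63 kb for *Cxcl12*. Their WT means before this division were 33.6 and 159 CPM. Which transcripts were used was not measured, and a shorter one would raise the value of a gene and could change the order. By this measure *Cxcl17* was highest in WT at 44.1 ± 3.21 CPM per kb. *Cxcl12* (28.3 ± 3.61) and *Ccl11* (25.3 ± 3.23 CPM per kb) followed, and their libraries overlapped. *Ccl6* (12.9 ± 0.755) and *Cx3cl1* (11.3 ± 1.11 CPM per kb) came after them without overlapping each other, while *Ccl25* (11.7 ± 7.53 CPM per kb) overlapped both. In transgenic stomach *Cxcl17* was at 76.5 ± 2.10 CPM per kb, above all other ligands in both libraries. *Ccl25* (17.4 ± 20.5), *Cx3cl1* (16.8 ± 2.01), *Ccl11* (10.6 ± 4.19), *Cxcl14* (6.77 ± 0.314) and *Ccl6* (6.12 ± 0.409 CPM per kb) followed. *Cxcl12* stood at 5.27 ± 0.171 CPM per kb, the seventh place by mean, below both libraries of *Ccl6*. *Ccl25* was at 31.9 CPM per kb in transgenic replicate 1 and at 2.88 in replicate 2, below *Cxcl12* there (5.39).

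**Figure D4:**
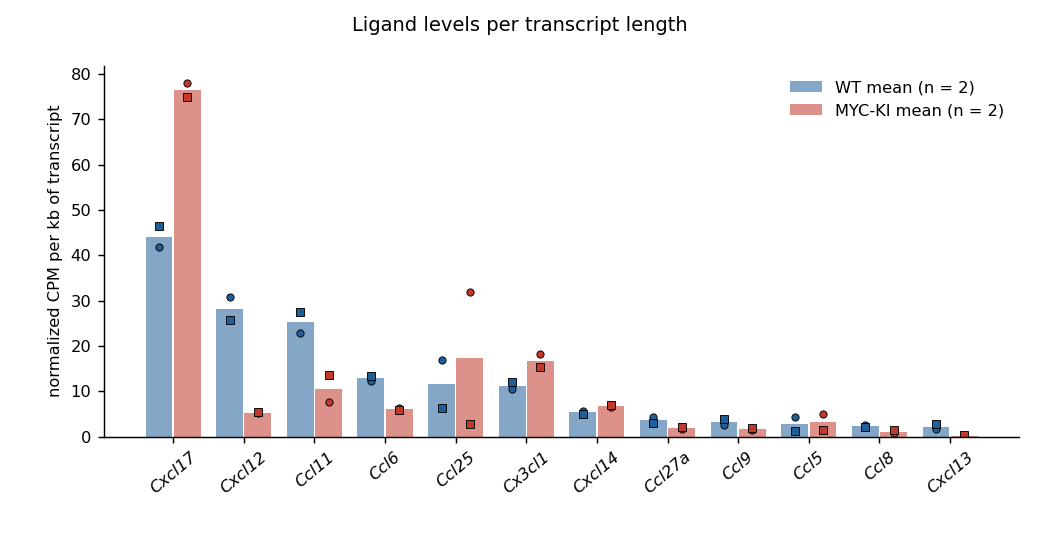
Normalized CPM per kb of the longest coding transcript of the 12 ligands that were highest by this measure in WT. Bars show the mean of 2 libraries, with circles for replicate 1 and squares for replicate 2, in blue for WT and red for transgenic stomach. *Cxcl17* is highest in both genotypes (44.1 and 76.5), and *Cxcl12* drops from 28.3 to 5.27.

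Taking all 39 ligands as a sum, CPM came to 348 and 324 in WT and to 245 and 205 in transgenic stomach. *Cxcl12* made up 49.8% and 44.6% of this sum in WT and 11.8% and 14.8% in transgenic stomach. Without *Cxcl12* the sums were 175 and 180 CPM in WT and 216 and 175 CPM in transgenic stomach, and the genotypes overlapped.

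The receptors of these ligands were followed beside them. None of the 12 tested of 19 signalling receptors was called with edgeR, where 2 were higher and 5 lower at an unadjusted p under 0.05 (17.7% and 16.4% over all genes), and their log2 fold changes ran from −2.12 to 2.01. With DESeq2 4 were called lower (9.49% over all genes), named here after their values had been seen. They are *Ccr1* (3.55 ± 0.00190 against 1.49 ± 0.432 CPM), *Ccr2* (6.72 ± 0.482 against 2.12 ± 1.12 CPM), *Cx3cr1* (13.5 ± 0.981 against 5.62 ± 1.68 CPM) and *Ccr3*. With edgeR *Ccr2* was called lower without the filter on low counts (adjusted p = 0.0382) and without transgenic replicate 2 (0.0257), and *Cx3cr1* without that filter (0.0199), at 10 counts in every sample (0.0493) and without transgenic replicate 1 (0.0345). *Ccr3*, under the filter of the edgeR fit, had 8 and 79 against 3 and 0 counts. *Cxcr4*, the signalling receptor of *Cxcl12*, was at 5.78 ± 1.31 CPM in WT and 6.24 ± 1.14 CPM in transgenic stomach, with overlap (log2 fold change 0.11, SE 0.28). *Cxcr2*, the receptor of *Cxcl5*, had 13 and 9 against 28 and 92 counts (log2 fold change 2.01, SE 0.62, adjusted p = 0.104), and its value was 1.21 without transgenic replicate 2 (adjusted p = 0.261). Both of these were also chosen after their values were seen.

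The 5 atypical receptors were all tested and none was called with edgeR (0 higher and 1 lower at an unadjusted p under 0.05), and DESeq2 called *Ackr1* lower (3.21 ± 0.227 against 1.11 ± 0.613 CPM), as did edgeR without transgenic replicate 2 (adjusted p = 0.0455). *Ackr3*, which scavenges *Cxcl12*, was at 21.8 ± 5.23 and 14.9 ± 4.78 CPM with overlap. Of 12 genes that carry receptor signals to migration, *Pik3cg* and *Pik3r5*, a catalytic and a regulatory subunit of PI3K-gamma, rose and another pair fell, where 5.65% and 5.08% of all genes were called. *Pik3cg* went from 9.65 ± 0.768 to 26.8 ± 7.54 CPM (log2 fold change 1.47, SE 0.24, adjusted p = 0.0356) and *Pik3r5* from 9.23 ± 1.80 to 34.5 ± 11.4 CPM (1.90, SE 0.30, adjusted p = 0.0337). *Dock2*, a Rac activator of leukocytes, fell from 9.29 ± 0.975 to 3.23 ± 0.266 CPM (−1.52, SE 0.22, adjusted p = 0.0305), and the arrestin gene *Arrb1* fell from 193 ± 7.23 to 121 ± 12.7 CPM (−0.67, SE 0.11, adjusted p = 0.0344). The *Arrb1* call was lost with library size alone (−0.44, adjusted p = 0.0522) and without transgenic replicate 2 (−0.56). *Rac2*, a leukocyte GTPase named after its values had been seen, was called higher by DESeq2 (adjusted p = 0.0128) and not by edgeR (log2 fold change 1.20, SE 0.39, adjusted p = 0.112), except without the filter on low counts (0.0392) and without transgenic replicate 2 (0.0220). *Grk6*, a receptor kinase, was called higher with library size alone (0.66, adjusted p = 0.0210). Leukocyte markers overall were at 41.3 and 48.3 CPM in WT and 38.5 and 26.5 CPM in transgenic stomach, with 1 of 5 called lower (*Coro1a*, log2 fold change −0.99, with *Cd53* next at −0.73), and their part in these changes was not tested. Mast cell markers, given above, rose alongside *Pik3cg* and *Pik3r5*, and their part was not tested either.

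Upstream, none of 9 tested of 15 cytokine inducers and NF-kB feedback genes was called (1 higher and 2 lower at an unadjusted p under 0.05 with edgeR, and 0 called with DESeq2). Their log2 fold changes ran from −0.49 to 0.62, and *Birc3* was called higher with library size alone (0.70, adjusted p = 0.0377). *Tnf*, *Il17a*, *Il17f*, *Ifng* and *Ifnb1* were at 0 counts in all libraries. The platelet chemokines *Pf4* and *Ppbp*, whose names fall outside the rule, were not tested either, with at most 7 counts in a library.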

How the data were processed

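RNA was measured in 2 WT and 2 *c-Myc* transgenic stomach samples. The authors deposited raw counts per gene symbol, not normalized. The submitters' processing notes name HISAT2 and mm10, the counting tool, annotation and strand are not given in the sources used here, and DESeq2 was used by the authors for their own comparison. The design text mentions triplicates, while 2 samples per genotype were analysed here. Groups and replicate numbers came from the sample titles, and no label says which mouse each sample came from. The WT libraries differed in sex-linked transcripts and so came from different animals. For the transgenic pair the spread that enters the p-values may not be that between animals. Within a genotype, libraries differed beyond counting noise (chi-square per degree of freedom 28.9 and 97.9).

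The counts of both transgenic columns were assigned in row order to the names sorted by character code, using no count value. The test across genes was that of edgeR 4.0.16 under R 4.3.3 (with TMM, filterByExpr with a minimum count of 10, glmQLFit and glmQLFTest, no covariates, Benjamini-Hochberg), and calls needed an adjusted p under 0.05 with a log2 fold change beyond 0.585 in either direction, as in the study's methods. The biological coefficient of variation was 0.295. CPM are TMM-normalized, with the SD over 2 samples, SEs are the log2 fold change over the square root of F, and depth sets precision through counting error only. Alternatives were the deposited row order, DESeq2 1.42.0, its size factors in edgeR, library size without scaling factors, other filters and fold thresholds, the replicate block and leaving out each sample. The fits were also run on simulated data with 200 changed genes as a check of the code, and no result here rests on that run.

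Positions and transcript lengths are from GENCODE M21 (GRCm38, 38 of 39 ligands matched), and promoter windows of 250 bases from RefSeq GRCm38.p6 (27 of 39 ligands). *Cxcl17* and *Cxcl5* are not in that promoter table. The ligands, the lists of receptors and markers and the tests were chosen with earlier results of these data known. Full values are given for called ligands, for those without overlap and an absolute log2 fold change above 1 and for the 10 with the highest mean CPM, and pathway genes are named where called. Marker lists are given by their sums, with the 2 largest changes where a member was called, and other genes were named after their values were seen.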

Additional observations from a re-analysis of the deposited data

How the results depend on the processing

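Leaving out a library left 0 to 1130 genes called higher and 0 to 1478 called lower, of 996 and 896, and 0 to 2 ligands called higher and 0 to 4 called lower, of 2 and 2. The zeros came without either WT library, where edgeR called 0 genes and 3508 and 3384 genes had an unadjusted p under 0.05, 7 and 6 of them ligands. The lone sample was then assumed to vary like the other group.

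In the deposited row order 9422 genes were called higher and 9158 lower, with 8 and 13 ligands. Of the ligands with full statistics and the called pathway genes, 6 changed sign there, *Ccl25* to −4.02, *Ccl28* to −4.38, *Ccl8* to 3.57, *Pik3cg* to −11.4, *Pik3r5* to −2.30 and *Dock2* to 3.59, by construction with the counts of other rows. Of the other tested ligands *Ccl20* (−1.52) and *Ccl5* (−8.71) did so too. DESeq2 called 1502 genes higher and 1732 lower, with 3 and 4 ligands. Library size alone called 2272 higher and 739 lower, with 3 and 3 ligands, and it moved the median log2 fold change of all genes from 0.01 to 0.23. The filter on low counts mattered too, with 4 ligands lower without it and 1 higher at 10 counts in every sample. A fold change above 2 left 464 genes and 1 ligand higher, and the size factors of DESeq2 left 1 ligand higher.

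With the replicate block 27 genes were called higher and 87 lower, with 0 ligands higher and 1 lower (*Cxcl12*), and *Ccl25* turned to −0.082. In that edgeR fit the adjusted p was 0.0756 for *Ccl6*, 0.0659 for *Cxcl17* and 0.133 for *Cxcl5*, so these calls were lost. Samples with the same number deviated from their group means with a correlation of 0.07 over 17643 genes. A correlation over all genes cannot exclude that same-numbered samples shared a litter or batch, and the labels give no pairing. *Ccl25* also turned to −2.02 without transgenic replicate 1, and its values without each library ran from −2.02 to 1.45. Apart from these reversals the ligands with full statistics kept their direction under each alternative in which they were tested, which for *Ccl22*, *Ccl24*, *Cxcl13* and *Cxcl5* leaves out the filter at 10 counts, and the cause of the changes in calls was not tested. At this depth 17 ligands had too few counts to be tested.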

Other observations

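Ligand genes that lie close together on a chromosome had fold changes of either sign or of the same sign. On chromosome 8, *Ccl22* (94745590 to 94751699), *Cx3cl1* (94772009 to 94782427) and *Ccl17* (94810453 to 94812036) lie close together on the plus strand of GRCm38. Of these, *Ccl22* had a log2 fold change of −2.41 (SE 0.87) and *Cx3cl1* one of 0.58 (SE 0.13), neither of them called, and *Ccl17* was too low to be tested. On chromosome 11, which holds 12 of the ligands, *Ccl9* (83572919 to 83578636) and *Ccl6* (83587882 to 83593087) lie close together on the minus strand. Both lay lower in both transgenic libraries, as did 31.5% of all genes tested, and *Ccl6* alone was called. On chromosome 5, which holds 11, *Cxcl5* (from 90759360), *Cxcl3*, *Cxcl15*, *Cxcl1* and *Cxcl2* (to 90905938) form a cluster, of which *Cxcl5* alone had enough counts to be tested.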
